A study of Homo sapiens with 3 samples.

Results

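The heat shock chaperone genes described here are 10 genes taken by name, HSPA1A, HSPA1B, HSPA8, HSP90AA1, HSP90AB1, HSPD1, HSPE1, HSPH1, DNAJB1 and HSPB1, of the 23284 genes listed in the RNA-seq data. All 10 names are present in all 3 libraries. The cells were 293T, a human embryonic kidney cell line, and all of them expressed dCas9-VP64, in which a Cas9 without nuclease activity carries a transcriptional activator to the site named by its guide RNA. They differed in the guide RNA, which was a mock sgRNA from the empty guide vector, sgL1ASP #1 or sgL1ASP #3, both directed at the antisense promoter (ASP) of the retrotransposon LINE-1 (L1). The study asked which genes respond when this promoter is activated, and each condition was sequenced as 1 library. The vectors were introduced by transfection, and a selection of the cells that took them up is not described. Each library is a bulk sample, in which fewer cells expressing a gene and less RNA per cell cannot be told apart.

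Chaperones bind proteins that are not yet folded or have lost their fold, and keep them from aggregating. HSP70 proteins do this in cycles of ATP binding and hydrolysis, for which J-domain proteins such as DNAJB1 deliver substrates and stimulate hydrolysis, and HSP110 proteins such as HSPH1 exchange the nucleotide. HSP90 acts later on kinases, receptors and other clients, small heat shock proteins such as HSPB1 hold unfolded proteins without ATP, and HSPD1 with its lid HSPE1 encloses proteins in the mitochondrial matrix. Under heat or other stress to proteins, the transcription factor HSF1 forms trimers and binds heat shock elements, arrays of GAA units in alternating orientation, and the inducible chaperone genes are among its best known targets.

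The promoters of the 10 genes, which were taken by name, were searched for this element first. In the RefSeq promoters (GRCh38.p14), the 250 bases before each start were read on both strands. An array of 3 units, GAANNTTCNNGAA or TTCNNGAANNTTC, was found for 4 of the 10 genes, HSP90AA1, HSP90AB1, HSPA8 and HSPD1, and for 152 of all 27305 genes (0.557%). The array of 2 units that is contained in it, GAANNTTC or TTCNNGAA, was found for 8 of the 10 genes and for 14% of all genes. HSPE1 and HSPH1 were the genes without it in the 250 bases before their RefSeq starts. For HSPE1 this depends on the start used. The sequence window that holds the 3-unit array of HSPD1 begins at GRCh37 position 198364765. The annotated span of HSPE1 given further on starts at 198364864 on the plus strand. The array counted for HSPD1 thus also lies within 250 bases before that HSPE1 start. Since some genes have several starts, the count per promoter is also given. The 2-unit array occurs in 8 of the 16 promoters of the 10 genes and in 11.6% of all 35116 promoters. The TATA box TATAAA was found for HSPA1A and HSPA1B, and for 13% of all genes. The pentamer CCAAT was found for 5 of the 10 genes and for 37% of all genes. A match describes the letters in this window and is not a measured binding site.

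Windows of 50 bases around the arrays are shown for members whose window does not overlap an annotated exon, and for HSPA6, an HSP70 gene known for strong induction by heat that is described further on. The array is in capitals. In the HSP90AA1 window the letters ttctggaa, left in lower case, are a further match to the 2-unit array.
HSPA1A (chr6:31815416-31815465, plus strand): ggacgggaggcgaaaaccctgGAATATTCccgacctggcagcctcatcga
HSPA1B (chr6:31827612-31827661, plus strand): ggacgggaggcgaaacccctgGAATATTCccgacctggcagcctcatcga
DNAJB1 (chr19:14518446-14518495, minus strand): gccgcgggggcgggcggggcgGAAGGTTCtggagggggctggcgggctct
HSP90AA1 (chr14:102087102-102087151, minus strand): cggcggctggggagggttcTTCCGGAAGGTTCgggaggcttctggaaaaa
HSP90AB1 (chr6:44247812-44247861, plus strand): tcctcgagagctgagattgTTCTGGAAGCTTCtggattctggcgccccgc
HSPB1 (chr7:76302470-76302519, plus strand): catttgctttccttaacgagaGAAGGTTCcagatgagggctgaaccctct
HSPA6 (chr1:161524447-161524496, plus strand): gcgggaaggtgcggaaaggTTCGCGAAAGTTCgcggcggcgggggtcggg
The array ends 99 bases before the start in HSPA1A and 98 bases before it in HSPA1B, 76 bases in HSP90AA1, 62 bases in HSPA6 and 175 bases in HSPB1. In DNAJB1 it ends 70 bases before the start, and another 2-unit array follows at 40 bases. In HSP90AB1 it ends 100 bases before 1 of the RefSeq starts, which lies inside the gene, and another 3-unit array (chr6:44247759-44247808 holds it) ends 153 bases before the same start.

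The values are FPKM, fragments scaled to transcript length and to a total for the library, so that levels of different genes are comparable per length. Which total scaled the libraries to each other is not given in the sources used here. They sum to between 619902.5 and 673483 per library, and read counts are not part of them. From the spacing of the lowest values, the depth was estimated at 10400000 reads for mock, 10300000 for sgL1ASP #1 and 8700000 for sgL1ASP #3. This is approximate, since the mock estimate is the commonest value among 954 genes and 42 of them gave it. Intervals on a log2 change below were derived from these depths, are at the 95% level and cover counting error only, since there is no replicate from which the spread between cultures could be taken. Fold changes are ratios of FPKM with no pseudocount. When the libraries are brought to an equal FPKM sum, the median log2 change over the genes at mean FPKM 1 or more moves from 0.0010 to -0.093 for sgL1ASP #1 and from 0.0019 to -0.12 for sgL1ASP #3. Of the markers of the cell line, VIM had FPKM 807 to 904, CDH2 16.4 to 18.3, NEFM 5.77 to 6.02 and LHX1 1.48 to 1.76, while PAX2 was low at 0.52 to 0.66. The blood cell genes PTPRC and CD3E were at 0 in every library, PECAM1, MLANA and ALB were under 0.5, and COL1A1 had FPKM 1.99 to 2.55. The reference gene HPRT1 had FPKM 112.7 to 116.6. The gene values do not separate transcripts started by the L1 ASP from other transcripts of a gene. Genes known for such transcripts were not examined, so the activation itself is not checked here.

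The chaperone genes were among the abundant transcripts of these cells, with the exception of HSPA1A. HSP90AB1 had the highest FPKM and ranked 97 of the 23284 genes by mean FPKM over the 3 libraries. HSPD1 followed at rank 223, HSP90AA1 at 257, HSPA8 at 273 and HSPB1 at 725. HSPE1, DNAJB1, HSPA1B and HSPH1 lay between ranks 1463 and 3068. HSPA1A was at rank 14756. This order of the 10 genes was the same in all 3 libraries. The neighbours DNAJB1 and HSPA1B were the closest, with FPKM 49.5 and 48.8 in sgL1ASP #1, a difference smaller than the counting error of either. The summed FPKM of the 10 genes was 1926 under mock, 1936 under sgL1ASP #1 and 1951 under sgL1ASP #3. As a share of all FPKM these sums are 0.311%, 0.293% and 0.29%, and 0.358%, 0.349% and 0.356% when small RNA genes are left out of the total.

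**Figure D1:**
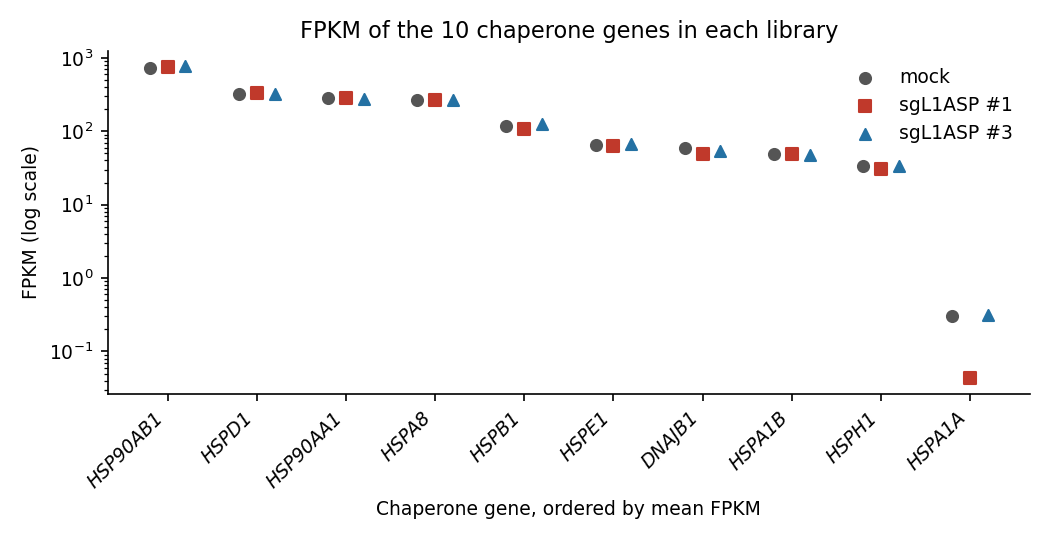
FPKM on a log axis for each of the 10 chaperone genes, ordered by mean FPKM, with 1 point per library. The 3 points of each gene lie close together from HSP90AB1 (737 to 765) down to HSPH1 (30.2 to 33.4), and only HSPA1A, at FPKM under 1, has a library that stands apart.

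None of the 9 chaperone genes with mean FPKM at least 1 differed by more than 1.5-fold between any of the libraries. Over all genes at mean FPKM 1 or more, that threshold was passed in either direction by 3.23% between sgL1ASP #1 and mock, 3.48% between sgL1ASP #3 and mock, and 3.34% between the guides. At these background shares less than 1 of 9 genes would be past it, so that the absence is no result about the chaperones. At 1.2-fold, 1 of the 9 genes passed with sgL1ASP #1 against mock (DNAJB1, lower), where 14.5% of all genes passed. With sgL1ASP #3 against mock 0 of 9 passed beside 15.2% of all genes, and between the guides 0 of 9 passed beside 14.8%. FPKM was higher than in mock for 4 of 9 genes with sgL1ASP #1 and for 5 of 9 with sgL1ASP #3, beside 50.3% and 50.6% of all genes. It was higher with sgL1ASP #1 than with sgL1ASP #3 for 4 of 9 genes, beside 49% of all genes. The median log2 change of the 9 genes was -0.0050 for sgL1ASP #1 and 0.011 for sgL1ASP #3, and the medians over all genes were 0.0010 and 0.0019. The median absolute log2 change was 0.040 and 0.042 for the 9 genes, and 0.094 and 0.095 for all genes, most of which have lower FPKM and so fewer reads. Among genes with mean FPKM at least 100, which include 5 of the chaperone genes, it was 0.063 and 0.062. Both guides were compared with the same mock library, so a deviation of that library enters both columns of values.

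**Figure D2:**
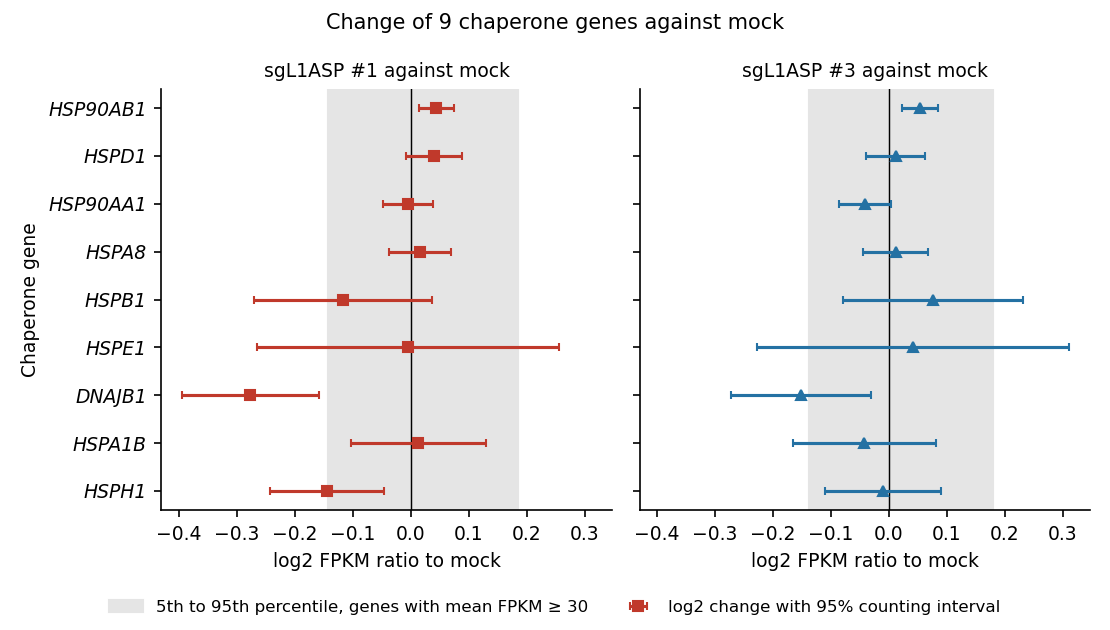
log2 FPKM ratio to mock of the 9 chaperone genes with mean FPKM at least 1, with sgL1ASP #1 on the left and sgL1ASP #3 on the right. Bars are 95% intervals for counting error only, and the grey band spans the 5th to 95th percentile of the genes at mean FPKM 30 or more (-0.14 to 0.19 with sgL1ASP #1 and -0.14 to 0.18 with sgL1ASP #3). DNAJB1 lies below the band with both guides and HSPH1 reaches its lower edge with sgL1ASP #1.

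The cytosolic HSP70 genes were followed first. HSPA8 encodes HSC70, the constitutive HSP70 of the cytosol, and lies on chromosome 11 of GRCh37 from 122928197 to 122933938 on the minus strand. Its FPKM was 263 under mock, 265.9 under sgL1ASP #1 and 265.1 under sgL1ASP #3. This is the smallest spread of the 10 genes, with the highest library 1.01 times the lowest. The log2 change was 0.016 with sgL1ASP #1 (interval -0.037 to 0.069) and 0.011 with sgL1ASP #3 (interval -0.044 to 0.067), at an estimated 5670 reads in mock.

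HSPA1A and HSPA1B encode the major heat-inducible HSP70 and lie side by side on chromosome 6, HSPA1A from 31783320 to 31785723 and HSPA1B from 31795515 to 31798031, both on the plus strand and each made of 1 exon in the canonical transcript. HSPA1B had FPKM 48.4 under mock, 48.8 under sgL1ASP #1 and 47.0 under sgL1ASP #3. Its log2 change was 0.013 with sgL1ASP #1 (interval -0.10 to 0.13) and -0.042 with sgL1ASP #3 (interval -0.17 to 0.081). HSPA1A had FPKM 0.300 under mock, 0.0434 under sgL1ASP #1 and 0.309 under sgL1ASP #3. The sgL1ASP #1 library is thus low for HSPA1A, and mock and sgL1ASP #3 are alike. At the estimated depth these values amount to about 7, 1 and 6 reads. The ratio of sgL1ASP #1 to mock was 0.145, with an exact binomial 95% interval of 0.0032 to 1.1 that includes no change. HSPA1A is the only 1 of the 10 genes past 1.5-fold, with sgL1ASP #1 against mock and against sgL1ASP #3 (ratio 0.14, interval 0.0031 to 1.2), and it is also the only gene below FPKM 1.

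The coding sequences of these 2 genes differ at 4 of 1923 bases. Of the 75-base windows of the HSPA1A transcript, the length of a read here, 73.8% occur without a mismatch in HSPA1B and 80.1% occur in it with at most 2 mismatches. Reads from most of both transcripts can therefore not be told apart, and the split of FPKM between the 2 names is uncertain. How such reads were shared between the genes is not given in the sources used here, and their part in the low value of HSPA1A was not tested. The sum of both genes had FPKM 48.7 under mock, 48.9 under sgL1ASP #1 and 47.3 under sgL1ASP #3, with log2 changes of 0.0049 and -0.042. Coding bases 61 to 120 of HSPA1B are shown with their GRCh37 positions and the aligned bases of HSPA1A, of HSPA8 and of HSPA6, with capitals where a base differs from HSPA1B, to show how alike the family members are to a short read.
HSPA1B (chr6:31795788-31795847, plus strand): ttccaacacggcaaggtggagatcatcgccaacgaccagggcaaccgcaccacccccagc
HSPA1A (chr6:31783594-31783653, plus strand): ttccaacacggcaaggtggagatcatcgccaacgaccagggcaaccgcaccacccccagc
HSPA8 (chr11:122931913-122931972, minus strand): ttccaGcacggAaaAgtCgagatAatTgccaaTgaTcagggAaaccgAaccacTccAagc
HSPA6 (chr1:161494515-161494574, plus strand): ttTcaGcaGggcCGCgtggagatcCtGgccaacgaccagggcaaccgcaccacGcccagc
Over this stretch HSPA1A has 0 differences from HSPA1B, HSPA8 has 12 and HSPA6 has 9. Over the whole coding sequence, HSPA8 is 73.8% and HSPA6 80.8% identical to HSPA1B, and 0 windows of either occur in HSPA1B, also with 2 mismatches allowed. HSPA8 thus shares no reads with HSPA1B by sequence, though 6.76% of its windows occur elsewhere in the genome.

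The cytosolic HSP90 genes differ in their known regulation, HSP90AA1 being more inducible and HSP90AB1 more constitutive. HSP90AB1, on chromosome 6 from 44213903 to 44221625, had FPKM 737 under mock, 759.7 under sgL1ASP #1 and 765 under sgL1ASP #3. Mock was the lowest library, and the log2 change was 0.044 with sgL1ASP #1 (interval 0.014 to 0.074) and 0.054 with sgL1ASP #3 (interval 0.023 to 0.085). These intervals leave out 0 at an estimated 18130 reads in mock. Of all genes at mean FPKM 1 or more, 25.3% changed by less with sgL1ASP #1 and 31.1% with sgL1ASP #3. Among the genes with mean FPKM at least 30, these shares were 37.5% and 45.8%. Most genes of either set thus changed by more. Bringing the libraries to an equal FPKM sum puts HSP90AB1, like each of the 9 genes, below mock with both guides. Its log2 changes were then -0.0497 with sgL1ASP #1 and -0.0655 with sgL1ASP #3. The medians over the genes at mean FPKM 1 or more were -0.0926 and -0.118 in that scaling, so HSP90AB1 stayed above them. HSP90AA1, on chromosome 14 from 102547079 to 102606036, had FPKM 281.4 under mock, 280.4 under sgL1ASP #1 and 273.4 under sgL1ASP #3. The log2 change was -0.0050 with sgL1ASP #1 (interval -0.048 to 0.038) and -0.042 with sgL1ASP #3 (interval -0.086 to 0.0033). The ratio of HSP90AA1 to HSP90AB1 was 0.382 under mock, 0.369 under sgL1ASP #1 and 0.357 under sgL1ASP #3.

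A pseudogene of HSP90AB1 carries a large value in the same table. HSP90AB3P, an intronless copy on chromosome 4 from 88812995 to 88815167 that was singled out after its value was seen, had FPKM 203.6 under mock, 200.3 under sgL1ASP #1 and 197.1 under sgL1ASP #3. This is 0.276, 0.264 and 0.258 of the FPKM of HSP90AB1. The aligned sequence is 97.2% identical to the HSP90AB1 coding sequence. Of its 75-base windows 5.57% occur in HSP90AB1 without a mismatch, and 58.4% with at most 2 mismatches. In coding bases 61 to 120 of HSP90AB1 (GRCh37), capitals mark where the pseudogene and HSP90AA1 differ from it, which shows how much closer the pseudogene is than the paralog.
HSP90AB1 (chr6:44216427-44216486, plus strand): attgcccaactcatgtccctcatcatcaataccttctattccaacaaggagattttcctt
HSP90AB3P (chr4:88813055-88813114, plus strand): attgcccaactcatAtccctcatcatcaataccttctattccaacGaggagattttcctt
HSP90AA1 (chr14:102552581-102552640, minus strand): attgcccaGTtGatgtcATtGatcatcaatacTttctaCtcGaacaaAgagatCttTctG
The pseudogene differs at 2 of these 60 bases and HSP90AA1 at 13. Whether the pseudogene's FPKM comes from its own transcripts or from reads of HSP90AB1 was not tested. Summed with HSP90AB3P and the smaller HSP90AB2P, HSP90AB1 gave FPKM 950.5, 971 and 974 in mock, sgL1ASP #1 and sgL1ASP #3, and log2 changes of 0.031 and 0.036. The paralogs HSP90AA1 and HSP90AB1 share 0 windows, also with 2 mismatches allowed, so reads of this length can tell them from each other.

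The cochaperones of HSP70 in the set, DNAJB1 and HSPH1, were lowest in sgL1ASP #1. HSPA1A, HSPE1 and HSPB1 were too, but HSPA1A rested on about 1 read there and HSPE1 had FPKM 63.8 beside 64.05 in mock. The share of all genes that were lowest in that library was not counted, so no shared pattern is read from these genes. DNAJB1, the J-domain protein known as HSP40 and an inducible HSF1 target, lies on chromosome 19 from 14625581 to 14671203 on the minus strand. It had FPKM 59.9 under mock, 49.5 under sgL1ASP #1 and 53.9 under sgL1ASP #3. Mock was the highest library and sgL1ASP #1 the lowest, at 0.826 of mock, with sgL1ASP #3 at 0.900. The log2 change was -0.28 with sgL1ASP #1 (interval -0.40 to -0.16) and -0.15 with sgL1ASP #3 (interval -0.27 to -0.031). The difference between the guides was -0.125 on the log2 scale, with an interval of -0.25 to 0.0015 that includes 0. Among the genes with mean FPKM at least 30, 97.1% of 3253 changed by less with sgL1ASP #1 and 88.4% of 3250 with sgL1ASP #3. Of the 9 genes, DNAJB1 changed most against mock, and 0 of its transcript windows occur elsewhere in the genome. Relative to HSPA8, an HSP70 it works with, the FPKM ratio of DNAJB1 to HSPA8 was 0.228 under mock, 0.186 under sgL1ASP #1 and 0.203 under sgL1ASP #3.

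HSPH1, the HSP110 protein HSP105, lies on chromosome 13 from 31709110 to 31736525. It had FPKM 33.4 under mock, 30.2 under sgL1ASP #1 and 33.2 under sgL1ASP #3, so that sgL1ASP #1 was low and the other libraries were alike. The log2 change was -0.145 with sgL1ASP #1 (interval -0.24 to -0.0465) and -0.011 with sgL1ASP #3 (interval -0.11 to 0.089). Between the guides it was -0.13 (interval -0.24 to -0.031). A smaller change with sgL1ASP #1 was seen in 86.4% of the genes with mean FPKM at least 30. None of the windows of its transcript occurs elsewhere.

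The genes whose pattern over the 3 libraries lay nearest to that of DNAJB1, by the distance between both log2 changes against mock, were CENPO, MAT2B and HOXA9. They had log2 changes of -0.28, -0.28 and -0.26 with sgL1ASP #1 and of -0.16, -0.16 and -0.15 with sgL1ASP #3. Within a distance of 0.05 there were 40 of the 7128 genes with mean FPKM at least 10 compared.

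The mitochondrial pair HSPD1 (HSP60) and HSPE1 (HSP10) is transcribed in opposite directions on chromosome 2. HSPE1 lies from 198364864 to 198368173 on the plus strand, within the annotated span of HSPD1 on the minus strand, 198351308 to 198381461. HSPD1 had FPKM 320.2 under mock, 329 under sgL1ASP #1 and 323 under sgL1ASP #3, with log2 changes of 0.040 (interval -0.0078 to 0.089) and 0.012 (interval -0.039 to 0.062). HSPE1 had FPKM 64.05 under mock, 63.8 under sgL1ASP #1 and 65.9 under sgL1ASP #3, with log2 changes of -0.0050 (interval -0.265 to 0.255) and 0.042 (interval -0.23 to 0.31). None of these intervals leaves out 0. Those of HSPE1 are wide, since its transcript of 557 bases collected only about 240 reads in mock. The ratio of HSPE1 to HSPD1 was 0.2 under mock, 0.194 under sgL1ASP #1 and 0.204 under sgL1ASP #3. At another place of the genome 20.9% of the HSPD1 windows and 21.3% of the HSPE1 windows occur without a mismatch. HSPE1-MOB4, a readthrough gene that contains exons of HSPE1, had FPKM 0.431 in mock and is listed at 0 with both guides. All its values are below FPKM 1 and the reads behind them were not estimated, so no change is read from them. Of its windows, 14.6% occur in HSPE1 without a mismatch. Adding it to HSPE1 gave log2 changes of -0.015 and 0.032.

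HSPB1, the small heat shock protein HSP27, lies on chromosome 7 from 75931990 to 75933612. It had FPKM 118 under mock, 108.7 under sgL1ASP #1 and 124 under sgL1ASP #3. The guides lay on opposite sides of mock, with log2 changes of -0.12 with sgL1ASP #1 (interval -0.27 to 0.036) and 0.076 with sgL1ASP #3 (interval -0.079 to 0.23), and both intervals include 0. The difference between the guides was -0.19 (interval -0.35 to -0.035), the largest between the guides among the 9 genes. A smaller difference was seen in 93.2% of the 3248 genes with mean FPKM at least 30. How far HSPB1 or any of the genes would differ between replicate cultures of 1 condition was not measured.

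The rest of the chaperone system was followed in lists made by family. Of 13 other HSP70 and HSP110 genes, 11 had mean FPKM at least 1. HSPA5, the HSP70 of the endoplasmic reticulum, had FPKM 508.9, 501.9 and 504.5 in mock, sgL1ASP #1 and sgL1ASP #3, and HYOU1, the HSP110 of that compartment, had 163.9, 163.6 and 163.8. Past 1.5-fold were 1 gene with sgL1ASP #1, HSPA6, and 2 with sgL1ASP #3, HSPA6 and HSPA12B, all of them lower than in mock, beside 3.23% and 3.48% of all genes past it in either direction. HSPA2, an HSP70 gene known from the testis, was past it only between the guides, with FPKM 2.53, 2.75 and 1.74.

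HSPA6 had FPKM 5.26 under mock, 3.43 under sgL1ASP #1 and 3.23 under sgL1ASP #3. Mock is high and the guide libraries are alike. The log2 change was -0.615 with sgL1ASP #1 (interval -1.03 to -0.20) and -0.70 with sgL1ASP #3 (interval -1.15 to -0.25), at about 120, 76 and 60 reads. Of its windows, 35.3% occur in the pseudogene HSPA7 without a mismatch and 65.3% with at most 2 mismatches, and 43.5% occur without a mismatch anywhere else in the genome. Their part in its values was not tested. HSPA7 had FPKM 0.291 under mock, 0 under sgL1ASP #1 and 0.1002 under sgL1ASP #3. These values are below FPKM 1 and their reads were not estimated, so no change is read from them. HSPA12B, a distant HSP70 relative, had FPKM 1.55, 1.28 and 0.974.

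**Figure D3:**
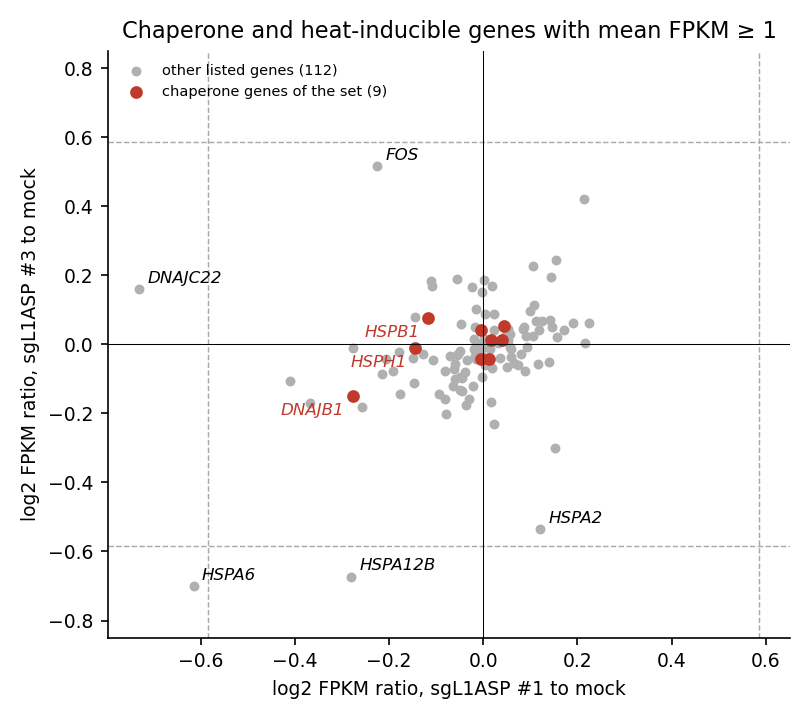
log2 FPKM ratio to mock with sgL1ASP #1 (horizontal) and sgL1ASP #3 (vertical) for the 9 chaperone genes of the set (red) and 112 other listed chaperone and heat-inducible genes with mean FPKM at least 1 (grey). Dashed lines mark 1.5-fold, both axes share the mock library, and HSPA6 is the only gene below the line on both axes.

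In the other families, HSP90B1 and TRAP1, the HSP90 proteins of the endoplasmic reticulum and of mitochondria, had log2 changes between -0.061 and 0.0037. Of 40 expressed J-protein genes, 20 were higher than in mock with sgL1ASP #1 and 16 with sgL1ASP #3, beside 50.3% and 50.6% of all genes. Past 1.5-fold against mock were 1 of the 40 with sgL1ASP #1 and 0 with sgL1ASP #3, shares near or below the 3.23% and 3.48% of all genes. The gene was DNAJC22, past it with sgL1ASP #1 against mock and between the guides, with FPKM 2.47, 1.49 and 2.76 in mock, sgL1ASP #1 and sgL1ASP #3. DNAJA1 had FPKM 156.2, 147.6 and 140.0 and DNAJC8 143.8, 145.3 and 142.5. Of 3 expressed genes listed by name as small heat shock protein genes, 0 passed. HSPB11 (62.7, 67.5 and 73.4) and HSPB8 (29.97, 29.98 and 34.08) were the highest of the list.

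Of 20 cochaperone genes of HSP70 and HSP90, 0 were past 1.5-fold with either guide, where the shares over all genes leave less than 1 of 20. Higher than in mock were 8 of the 20 with sgL1ASP #1 and 6 with sgL1ASP #3, beside 50.3% and 50.6% of all genes. CDC37, which brings kinases to HSP90, had FPKM 229.6, 226.7 and 224.2, and STIP1, which links HSP70 to HSP90, had 134.2, 130.1 and 125.5. The 8 genes of TRiC, the cytosolic chaperonin, had log2 changes between -0.080 and 0.14 against mock, and its most abundant members CCT3 and CCT7 between -0.013 and -0.0065. The 6 prefoldin genes, whose products deliver actin and tubulin to TRiC, had log2 changes between -0.10 and 0.22. PFDN5 had FPKM 518.5, 550.5 and 536.9, and PFDN2 had 121.1, 116.2 and 112.9. The 14 mitochondrial chaperone and protease genes had a median of -0.0022 with sgL1ASP #1 and -0.0081 with sgL1ASP #3. HSPA9, the mitochondrial HSP70, had FPKM 124.3, 124.5 and 123.6.

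HSF1 itself had FPKM 67.5 under mock, 65.1 under sgL1ASP #1 and 66.3 under sgL1ASP #3, and HSBP1, which binds HSF1, had 121.8, 122.1 and 129.5. Of 19 expressed genes in a list of other heat-inducible genes, 7 were higher than in mock with sgL1ASP #1 and 8 with sgL1ASP #3, beside 50.3% and 50.6% of all genes. Past 1.5-fold was 1 gene with each guide, beside 3.23% and 3.48% of all genes, and this was HSPA6, which is in both lists. FOS was past it between the guides, with FPKM 1.56, 1.34 and 2.23. UBB, a ubiquitin gene, had FPKM 990.4, 978 and 1025. The median log2 change of the list was -0.018 and -0.0085, beside 0.0010 and 0.0019 for all genes.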

How the data were processed

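Total RNA of 293T cells was made into 3 stranded mRNA libraries and read in 75-base single-end mode. The authors mapped the reads to hg19 with TopHat2 2.0.13, Bowtie2 2.2.3 and SAMtools 0.1.19, and deposited FPKM per gene from Cufflinks 2.2.1 (Cuffdiff, strand-specific). The gene annotation and the scaling between libraries are not given in the sources used here. FPKM splits reads of near-identical genes by rules that could not be seen.

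The members and gene lists were chosen with earlier results of these data known. Libraries were grouped by their titles, and 0 value columns lacked a sample. All 10 members are named, and from each list of related genes the 2 genes with the highest mean FPKM and any gene with mean FPKM at least 1 past 1.5-fold in any comparison, with the 3 genes most like the member that changed most. HSP90AB3P, HSP90AB2P, HSPA7 and HSPE1-MOB4 were added as copies of listed genes, HSP90AB3P after its value was seen. With 1 library per condition no test was made. Genes past 1.5-fold were counted beside the share over all genes.

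Gene positions and canonical transcripts are those of GENCODE 44 on GRCh37, the build of hg19. Depth was estimated in mock from genes with 1 transcript longer than 1000 bases, less a fragment of 200 bases, and for the guides from the commonest ratio to mock of low values (0.987 and 0.831). The 75-base windows were searched on 24 chromosomes. The counting rule was tested on simulated data. Python 3.11.15, NumPy 2.4.6, pandas 2.3.3, Biopython 1.88 and matplotlib 3.10.9 were used.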

Additional observations from a re-analysis of the deposited data

How the results depend on the processing

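No paired analysis was possible because only 1 library exists here for each guide, and so none could be left out. The alternatives that count members with mean FPKM at least 1 and that sum the HSP90 pseudogenes were chosen after seeing the data. Over all 10 genes, 1 was past 1.5-fold with sgL1ASP #1 against mock and 1 between the guides, in each case HSPA1A, and 0 with sgL1ASP #3 against mock. Both counts of 1 became 0 with a pseudocount of 1, with near-identical copies summed, and among genes with mean FPKM at least 1. Each of these alternatives had to take HSPA1A out of the count, since its FPKM was at most 0.309. They therefore do not test its change. At 1.2-fold the count with sgL1ASP #1 was 2. The sum of HSPA1A and HSPA1B had log2 changes of 0.0049 with sgL1ASP #1 and 0.047 between the guides. HSPA1A alone had -2.79 and -2.83, and HSPA1B alone 0.013 and 0.055. HSPA1B supplies nearly all of the sum, so the sum repeats its change and says little about HSPA1A. Higher than in mock were 4 of the 10 genes with sgL1ASP #1 and 6 with sgL1ASP #3. Both counts became 0 once the libraries were brought to an equal FPKM sum, small RNA genes included. Relative to the median of all genes in that scaling, 4 of 9 genes lay above it with sgL1ASP #1 and 5 of 9 with sgL1ASP #3. Rescaling to the median ratio changed none of these counts. It could move them little, because the deposited medians over all genes were already 0.0010 with sgL1ASP #1 and 0.0019 with sgL1ASP #3. The median log2 change of the 10 genes, -0.0050 with sgL1ASP #1 and 0.012 with sgL1ASP #3, became -0.099 and -0.11 with an equal FPKM sum. With genes at every FPKM counted, the background share past 1.5-fold rises to 11.9%, 12% and 11.8%, and with mean FPKM at least 100 it is 1.92%, 1.81% and 2.17%. The depth limits HSPA1A, at 1 to 7 reads, and HSPE1, at about 240, 230 and 200 reads.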
